A study of Mus with 96 samples.

Results

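Whether loss of BMAL1 in hepatocytes changes the liver transcriptome in the same way on 2 diets was examined in all 96 liver libraries of the study, 24 for each combination of genotype and diet. Hep-Bmal1KO mice carry 2 floxed Bmal1 alleles and a Cre recombinase driven by the albumin promoter (AlbCre/+/Bmal1flx/flx). Hep-Bmal1WT mice are littermates with the same floxed alleles and no Cre (Alb+/+/Bmal1flx/flx), so every group carried Bmal1flx/flx. The paper describes the deletion as specific to hepatocytes, and these bulk libraries do not measure Bmal1 in other liver cells separately. Mice were 8 to 10 weeks old, of both sexes, and ate normal chow (NC) or a choline-deficient high-fat diet with added cholesterol (cdHFD) for 2 weeks, a short dietary model of metabolic dysfunction-associated steatohepatitis (MASH). Livers were taken every 4 hours from ZT 2 to ZT 22, with 4 mice for each genotype, diet, and ZT, where ZT is the time in hours after lights on. Each group held 12 females and 12 males, except Hep-Bmal1WT on cdHFD, with 11 and 13.

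BMAL1 is the transcriptional activator of the circadian clock, and with CLOCK it binds E-box elements in clock genes and in many genes of liver metabolism. The hepatic clock acts on top of feeding and dietary signals. One example is cholesterol, which shuts down its own synthesis through the SREBP2 pathway, so that enzymes of that route are low in livers that take up much dietary cholesterol. Choline deficiency limits the export of triglyceride from hepatocytes and the supply of methyl groups, and together with a high-fat diet it leads to steatosis, macrophage accumulation, and activation of stellate cells, the matrix-producing cells of the liver.

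For each gene, the log2 fold change of Hep-Bmal1KO against Hep-Bmal1WT was estimated on each diet with a separate level for each ZT, and the interaction was the fold change on cdHFD minus that on NC, in log2 units. A negative interaction thus means that the Hep-Bmal1KO value, relative to Hep-Bmal1WT, was lower on cdHFD than on NC. Each p-value came from the quasi-likelihood F-test of edgeR, adjusted by Benjamini and Hochberg's method for 15548 tested genes, and a gene was called at an adjusted p under 0.05. Levels are CPM (a library's counts scaled to a common total, after TMM scaling), given as the lowest, median, and highest of 24 libraries, a spread that includes the variation over the day.

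Total counts per library ranged from 1861740 to 9718615. The median was 5769262.5 in Hep-Bmal1WT and 6383169 in Hep-Bmal1KO on NC, and 6213499.5 and 7637271 on cdHFD. Reads in rows that name no gene made up 31.5% in Hep-Bmal1WT and 27.4% in Hep-Bmal1KO on NC, and 25.8% and 25.5% on cdHFD. The part of these group differences in the called genes was not tested, beyond leaving out the library of fewest counts. The 4 groups occupied separate columns of the library plate, columns 1 to 3, 4 to 6, 7 to 9, and 10 to 12, so plate position and the combination of genotype and diet cannot be told apart. In 7 libraries, both the clock genes and 20 other genes that separated the genotypes lay nearer to the other genotype than to the label (2 of Hep-Bmal1WT and 2 of Hep-Bmal1KO on NC, 2 of Hep-Bmal1WT and 1 of Hep-Bmal1KO on cdHFD). All results are given over 96 libraries by label, with values without these 7 libraries where stated. Because the 7 libraries were found with clock genes and genotype-responsive genes, some of them described here (Arntl, Lpl, Gstm2, Gstm6, Mvk, and Cyp2f2 among them), larger differences without them follow in part from how they were found. Albumin (Alb), the hepatocyte plasma protein, was between 29400 and 171000 CPM in every library.

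The targeted gene was still read in Hep-Bmal1KO livers. Arntl (the gene symbol of Bmal1) ranged from 0.21 to 26.1 CPM (median 7.21) in Hep-Bmal1WT on NC, from 0.253 to 13 (median 7.55) in Hep-Bmal1KO on NC, from 0.256 to 23 (median 7.17) in Hep-Bmal1WT on cdHFD, and from 1.89 to 12.3 (median 5.7) in Hep-Bmal1KO on cdHFD. The groups overlapped, and within each group the range over the day was wider in Hep-Bmal1WT than in Hep-Bmal1KO. At ZT 22 its mean was 17.5 and 8.43 CPM in Hep-Bmal1WT and Hep-Bmal1KO on NC and 21.2 and 7.72 on cdHFD, whereas at ZT 10 on NC it was 0.748 and 5.77. The Hep-Bmal1KO group at ZT 10 on NC includes a library against its label. Averaged over ZT, the interaction of Arntl was -0.45 ± 0.33 (SE, edgeR adjusted p = 0.53). The libraries read only the 3′ end of each mRNA, so reads here do not show whether the floxed exon was removed.

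The genotype difference depended on diet for 473 of 15548 genes (3.04%), of which 162 had a positive and 311 a negative interaction. On NC, 2416 genes (15.5%) differed between the genotypes (1304 higher in Hep-Bmal1KO, 8.39%, and 1112 lower, 7.15%), and on cdHFD 980 genes (6.3%) did (426 higher, 2.74%, and 554 lower, 3.56%). Positive interactions were 1.04% and negative ones 2% of the genes tested. The diet itself changed more genes, 58.8% in Hep-Bmal1WT (30.8% higher and 28% lower on cdHFD) and 62.5% in Hep-Bmal1KO (33.3% and 29.2%). Of 2027 genes called on NC and not on cdHFD, 332 (16.4%) passed the test of the interaction itself, and of 591 called on cdHFD and not on NC, 84 (14.2%) did. For the other genes, a call on one diet and not on the other did not by itself show a difference between the diets. Of 378 genes called on both diets in the same direction, 19 (5.03%) passed the interaction test, and all 11 called on both in opposite directions passed it. Without the 7 libraries, 919 genes were called, 466 of the 473 among them, and all 473 kept the sign of their interaction. The count fell to 211, 254, 301, and 260 without ZT 10, 14, 18, or 22, rose to 736 without ZT 2, and was 103 or 163 without the first or second mouse of every combination.

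The 473 genes were sorted into classes. Genes whose differences had opposite signs, with an unadjusted p under 0.05 on each diet, were set apart first, whether or not both differences were called, so the classes of a single diet are smaller than the 332 and 84 genes above. In 298 of the other genes the genotype difference was called on NC alone (201 higher and 97 lower in Hep-Bmal1KO), and in 68 on cdHFD alone (30 higher and 38 lower). In 19 genes it was called on both diets with the same sign, and in 18 of these it was larger on NC. In 86 genes the signs were opposite, 11 of them called on both diets: 56 were higher in Hep-Bmal1KO on NC and lower on cdHFD, and 30 the reverse. The remaining 2 genes fell into no class. The median size of the genotype difference was 0.47 on NC and 0.08 on cdHFD in the NC-only class, 0.12 and 0.41 in the cdHFD-only class, and 0.25 and 0.23 in the class of opposite signs, in log2 units. Without the 7 libraries the classes held 525, 143, 95 (same sign), and 142 (opposite signs) genes, and 259, 58, 19, and 76 genes kept their class.

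**Figure D1:**
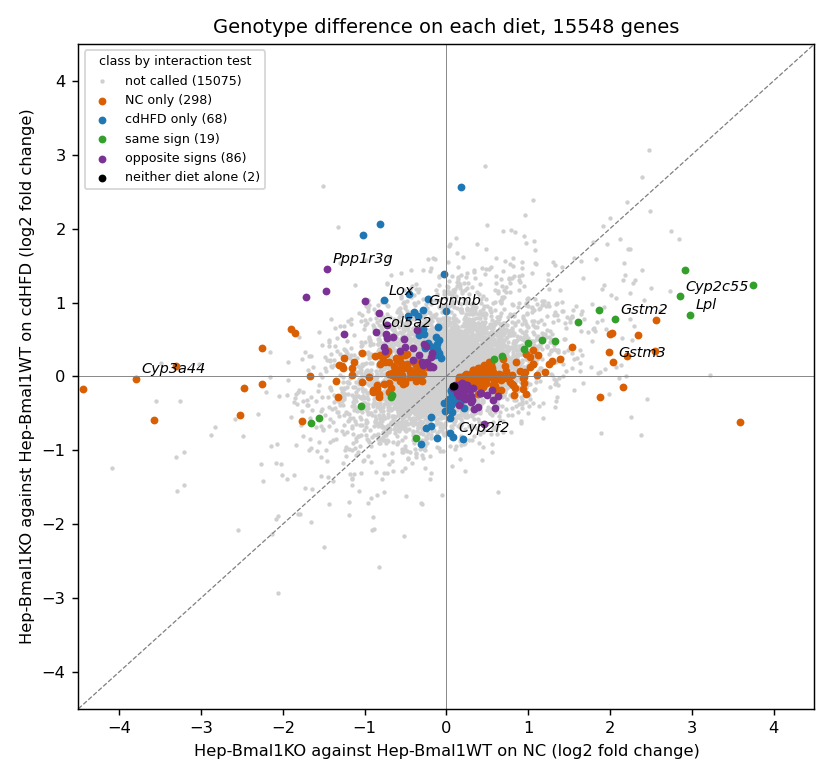
Log2 fold change of Hep-Bmal1KO against Hep-Bmal1WT on NC (horizontal) and on cdHFD (vertical), one point per gene, with colours for the class of the 473 genes called for the interaction and grey for the other genes. The NC-only class spreads along the horizontal axis and the cdHFD-only class along the vertical axis, the dashed line marks equal differences on both diets, and 6 genes lie outside the axes, which end at 4.5.

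Among 37 gene lists, cholesterol synthesis held the highest share of called genes, and the lists split by direction. Medians of the interaction were negative for cholesterol synthesis, interferon-stimulated genes, and drug-metabolizing cytochromes P450, and positive for genes of stellate cells and matrix, of ductular injury, and of the glucocorticoid response. The lowest list median, -0.68, was that of male-biased liver genes (20 of 24 below 0, none called), and the highest, 0.53, that of female-biased liver genes (4 of 23 below 0, 1 called). Over all genes tested the median was 0.01. The counts on each diet below stand beside shares over all genes tested. On NC 8.39% were called higher and 7.15% lower in Hep-Bmal1KO, and on cdHFD 2.74% and 3.56%.

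**Figure D2:**
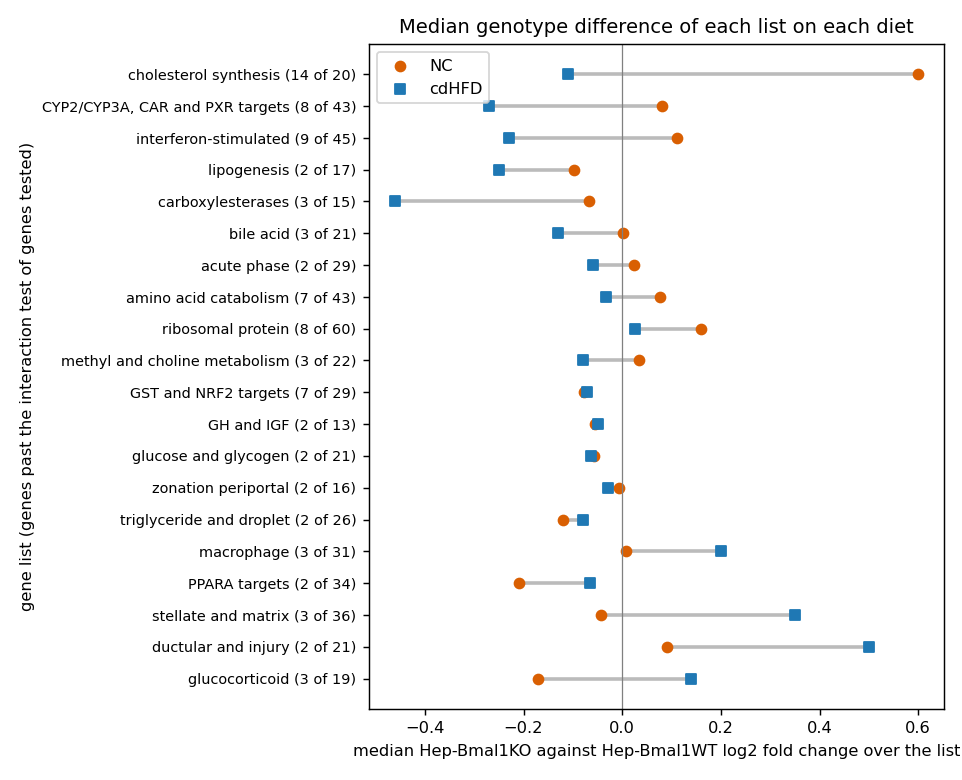
Median log2 fold change of Hep-Bmal1KO against Hep-Bmal1WT over the tested genes of each list, on NC (circles) and on cdHFD (squares), for the lists with at least 2 genes called for the interaction. Cholesterol synthesis lies at 0.60 on NC and at -0.11 on cdHFD, and matrix genes lie at -0.04 and 0.35.

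The enzymes of cholesterol synthesis were higher in Hep-Bmal1KO on NC, and on cdHFD none was called higher. Of 20 enzymes from acetyl-CoA to cholesterol, 14 (70%) had a called negative interaction, and all 20 had an estimate below 0, with a median of -0.66. On NC 18 of the 20 were called higher in Hep-Bmal1KO, and on cdHFD none was called higher and 1 lower. Seen from the diet, the list fell by a median of 2.7 log2 units from NC to cdHFD in Hep-Bmal1WT and by 3.3 in Hep-Bmal1KO. Without the 7 libraries 17 enzymes were called. The 14 called enzymes span the route from the thiolase Acat2, the synthase Hmgcs1, and the mevalonate enzymes Mvk, Mvd, and Fdps to squalene and sterol enzymes such as Fdft1, Lss, Cyp51, Msmo1, and Dhcr7.

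Fdft1, squalene synthase, commits the pathway to sterols. It measured 124 to 377 CPM (median 197) in Hep-Bmal1WT and 155 to 539 (median 349) in Hep-Bmal1KO on NC, and 26.8 to 60.4 (median 41.4) and 27.2 to 59.9 (median 33.4) on cdHFD. The ranges overlapped on both diets, the Hep-Bmal1KO median being higher on NC and lower on cdHFD. The log2 difference was 0.63 ± 0.09 (SE) on NC and -0.27 ± 0.09 on cdHFD, and the interaction was -0.90 ± 0.13 (edgeR adjusted p = 2.1e-06). At all 6 ZTs the mean of Fdft1 was higher in Hep-Bmal1KO on NC and lower on cdHFD.

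Mvk, mevalonate kinase, had 10.7 to 46.3 CPM (median 22.8) in Hep-Bmal1WT and 18.2 to 83.7 (median 42.8) in Hep-Bmal1KO on NC, against 4.12 to 14.1 (median 7.60) and 4.04 to 10.8 (median 7.27) on cdHFD. Both cdHFD groups thus lay low and together. The interaction was -1.0 ± 0.15 (edgeR adjusted p = 6.9e-06). Cyp51, the lanosterol demethylase, had medians of 142 and 255 CPM on NC and of 10.5 and 8.69 on cdHFD, and Tm7sf2, a sterol reductase, had 138 and 210 on NC and 7.13 and 6.69 on cdHFD (Hep-Bmal1WT and Hep-Bmal1KO each). Their interactions were -0.85 ± 0.13 and -0.70 ± 0.11 (edgeR adjusted p = 1.5e-05 and 1.7e-05). Dhcr7 (interaction -0.73 ± 0.11) had opposite signs like Fdft1, whereas Acat2 (-0.68 ± 0.11) was called on NC alone.

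**Figure D3:**
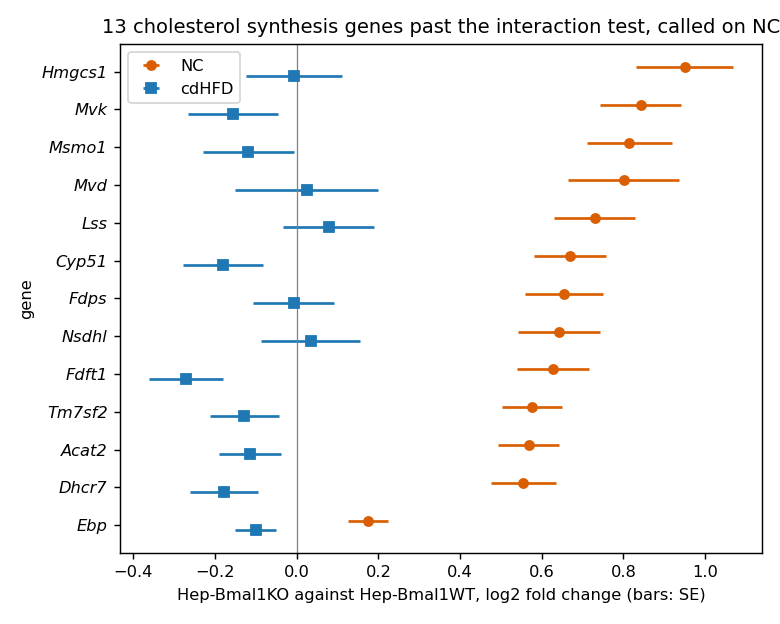
Log2 fold change of Hep-Bmal1KO against Hep-Bmal1WT with its SE for 13 of the 14 cholesterol synthesis genes called for the interaction, on NC (circles) and on cdHFD (squares). The 1 gene of the cdHFD-only class, whose genotype difference was called on cdHFD and not on NC, is not shown. All 13 lie above 0 on NC, and on cdHFD they lie between -0.27 and 0.08.

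The other lists of sterol and fatty acid genes are small, and their counts stand beside a share of 3.04% over all genes tested. Of 15 genes of SREBP2 control and lipoprotein uptake, 1 was called (6.67%). This was Scarb1, the HDL receptor, whose difference was 0.35 ± 0.07 on NC and 0.03 ± 0.07 on cdHFD (interaction -0.33 ± 0.10, edgeR adjusted p = 0.048). Of 11 genes of sterol export, edgeR and DESeq2 called none, 2 had an unadjusted p under 0.05 in edgeR, both positive, and 1 was called without the 7 libraries. In fatty acid synthesis, 2 of 17 genes were called (11.8%), the acetyl-CoA synthetase Acss2 (-0.57 ± 0.13) and the desaturase Scd2 (-1.14 ± 0.25), both higher in Hep-Bmal1KO on NC.

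Glutathione transferases of the mu class were raised in Hep-Bmal1KO on NC, and the difference was smaller on cdHFD. Of 29 glutathione transferase and NRF2 target genes, 7 (24.1%) were called for the interaction, namely Gstm1, Gstm2, Gstm3, Gstm4, Gstm6, and Gstm7, all negative, and the export pump Abcc4, which was positive. These enzymes conjugate glutathione to reactive compounds. Gstm7, Gstm6, Gstm3, Gstm2, and Gstm1 lie together on chromosome 3 between positions 107926334 and 108017973 of GRCm38.p6, and since their sequences are alike, reads may be divided among them in ways the counts do not show.

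Gstm6 had 59.2 to 390 CPM (median 119) in Hep-Bmal1WT and 67.1 to 491 (median 331) in Hep-Bmal1KO on NC, and 44.5 to 138 (median 77) and 40.2 to 180 (median 94) on cdHFD. On NC, the 2 highest Hep-Bmal1WT and the 2 lowest Hep-Bmal1KO libraries were the 4 against their labels. Gstm6 was among the genes used to find such libraries, so this follows in part from that choice. The interaction was -1.15 ± 0.16 (edgeR adjusted p = 2.0e-06), the smallest p of all genes, and -1.31 without the 7 libraries. Gstm3 had the largest interaction of the Gstm genes, with medians of 238 and 1190 CPM on NC and of 792 and 845 on cdHFD. In Hep-Bmal1WT, Gstm3 rose by 1.5 log2 units from NC to cdHFD, and in Hep-Bmal1KO its change was -0.36. The interaction of Gstm3 was -1.84 ± 0.30 (edgeR adjusted p = 2.2e-05).

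**Figure D4:**
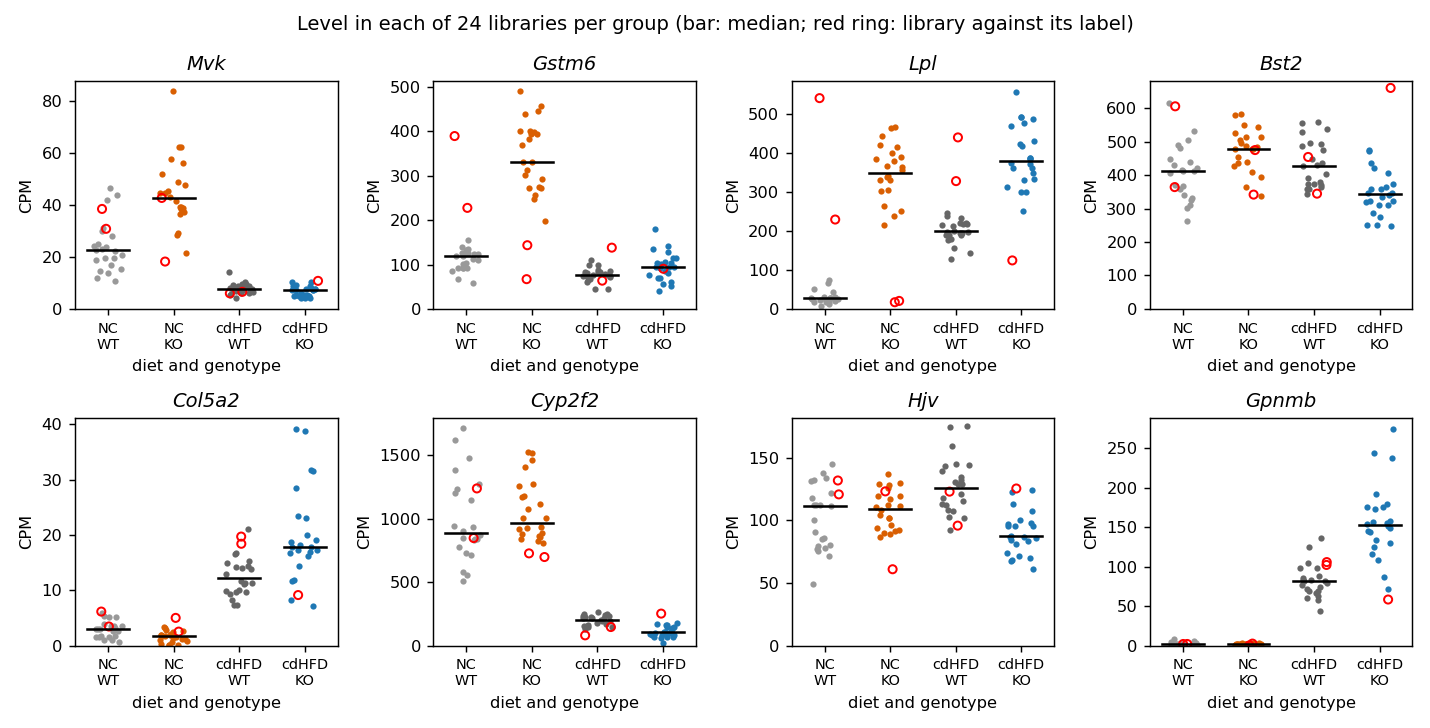
CPM of 8 genes in each library, 24 per group, with a bar at the median and open red circles for the 7 libraries against their labels. The medians of Mvk and Gstm6 lie apart on NC and close on cdHFD, Lpl is higher in Hep-Bmal1KO on both diets, Bst2 and Col5a2 change sign, and the medians of Cyp2f2, Hjv, and Gpnmb lie apart on cdHFD.

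The NC-only class also held genes of other functions. Tmem176b and Tmem176a, membrane proteins, ranked with the sterol enzymes. Tmem176b had medians of 249 and 338 CPM on NC and of 596 and 555 on cdHFD (interaction -0.53 ± 0.08, edgeR adjusted p = 1.5e-05), and Tmem176a 292 ± 79 and 409 ± 100 CPM (mean ± SD, n = 24) on NC and 674 ± 87 and 635 ± 73 on cdHFD (interaction -0.56 ± 0.09). The 2 genes overlap on chromosome 6 (48833811-48845948 and 48841483-48845364), and whether the counting used strand is not given in the sources used here, so their reads may not be separate. Slc22a15, a transporter of the organic cation family, went from 8.68 ± 3.76 to 16.4 ± 5.1 CPM on NC and from 6.0 ± 1.58 to 5.34 ± 1.31 on cdHFD (interaction -1.11 ± 0.17, edgeR adjusted p = 1.6e-05).

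Genes of methyl and amino acid metabolism followed. Bhmt uses betaine, made from choline, to methylate homocysteine. Its range was 676 to 4500 CPM (median 1550) in Hep-Bmal1WT and 1460 to 8900 (median 3600) in Hep-Bmal1KO on NC, and 522 to 1890 (median 1080) and 428 to 1910 (median 1230) on cdHFD. The Bhmt interaction was -0.90 ± 0.23 (edgeR adjusted p = 0.015). Its relative Bhmt2 also had a negative interaction (-0.39 ± 0.11), and the folate enzyme Mthfd1l a positive one (1.16 ± 0.32), which makes 3 of 22 genes in the list (13.6%). Mthfd1l was of the class of opposite signs (-0.76 ± 0.25 on NC and 0.40 ± 0.19 on cdHFD). The interaction of Bhmt was -0.39 in females and -1.49 in males, and that of Bhmt2 -0.12 and -0.69. These differences between the sexes were not called (edgeR adjusted p = 0.40 and 0.28). Of 43 genes of amino acid catabolism, 7 were called (16.3%), a count that went to 1, 2, and 4 without mouse 1, 2, or 4 of every combination and to 3 without ZT 10. Of these, 5 were negative and 2 positive. The kynurenine enzyme Kynu (-0.51 ± 0.11), the histidine enzyme Amdhd1 (-0.46 ± 0.11), Cth of transsulfuration (-0.49 ± 0.13), and the transaminase Gpt (-0.41 ± 0.09) were higher in Hep-Bmal1KO on NC. Of these, Gpt was of the class of opposite signs (0.26 ± 0.07 on NC and -0.15 ± 0.07 on cdHFD). Asns, asparagine synthetase, was lower in Hep-Bmal1KO on NC, with medians of 1.71 and 0.663 CPM there and of 9.95 and 6.63 on cdHFD (interaction 2.01 ± 0.51, edgeR adjusted p = 0.012).

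Ribosomal protein genes showed small differences in 1 direction. Of 60, 8 were called (13.3%), all negative, and 59 of 60 estimates were below 0 with a median of -0.14. On NC 38 of the 60 were called higher in Hep-Bmal1KO, beside 8.39% over all genes tested, and on cdHFD none was called. Rpl4 averaged 852 ± 195 and 1034 ± 150 CPM on NC (mean ± SD, n = 24) and 992 ± 126 and 994 ± 123 on cdHFD (interaction -0.30 ± 0.06, edgeR adjusted p = 0.0016). The ribosomal protein count moved with the setting, to 5 with DESeq2's size factors, 16 without the 7 libraries, 5 without the library of fewest counts, which is of Hep-Bmal1WT on NC, and 0 to 22 when a ZT or a mouse was left out.

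Of 8 transcripts of the mitochondrial genome, 6 were called lower in Hep-Bmal1KO on NC and none on cdHFD, and mt-Nd5 was called for the interaction (0.42 ± 0.09, edgeR adjusted p = 0.002). None of 46 nuclear genes of the respiratory chain was called for the interaction by edgeR or DESeq2, 13 had an unadjusted p under 0.05 in edgeR, and 3 were called without the 7 libraries. Alb was lower in Hep-Bmal1KO on NC, at medians of 106000 CPM in Hep-Bmal1WT and 52400 in Hep-Bmal1KO with ranges of 49000 to 162000 and 32200 to 171000, and was at 52600 and 40700 on cdHFD (interaction 0.55 ± 0.16, edgeR adjusted p = 0.041). Alb was the one hepatocyte marker of 18 called for the interaction. The summed level of these markers had medians of 188000 and 148000 CPM on NC and 92100 and 81800 on cdHFD, with ranges of 135000 to 253000, 121000 to 254000, 70000 to 112000, and 66900 to 107000.

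Targets of PPARα and of the glucocorticoid receptor that passed the test had positive interactions. PPARα drives fatty acid oxidation. Of 34 of its targets, 19 were called lower in Hep-Bmal1KO on NC and 4 on cdHFD, beside 7.15% and 3.56% over all genes tested. Of the 34, 2 passed the interaction test, both positive (5.88%). These were Fabp1, the liver fatty acid binding protein, at medians of 11700 and 6910 CPM on NC and 3700 and 2900 on cdHFD (0.40 ± 0.12, edgeR adjusted p = 0.048), and the thioesterase Acot1 (1.05 ± 0.28, edgeR adjusted p = 0.019). The interaction of Acot1 was 0.65 in females and 1.62 in males, a difference that was not called (edgeR adjusted p = 0.57). Called sex differences included Cyp4a10 (0.13 in females and 2.10 in males, edgeR adjusted p = 0.0025) and Cyp4a14 (-0.22 and 1.925, edgeR adjusted p = 0.039). They also included Aldh3a2 (-0.05 and 1.47, edgeR adjusted p = 0.002) and Cd36 (-0.83 and 0.35, edgeR adjusted p = 0.0049). Among the genes with a called sex difference, Gstp3 and Bmp1 had the lower interaction in males. Of 19 glucocorticoid-responsive genes, 3 were called, all positive (15.8%), and the median of the list was 0.39. Fkbp5, a chaperone induced by the glucocorticoid receptor, averaged 37.7 ± 26 and 22.2 ± 13.1 CPM (mean ± SD, n = 24) on NC and 40.5 ± 13.1 and 42.1 ± 15.1 on cdHFD (0.71 ± 0.21, edgeR adjusted p = 0.048), and Angptl4, an inhibitor of lipoprotein lipase, 67.4 ± 29.7 and 44.5 ± 21.9 on NC and 87 ± 25 and 93.2 ± 33.9 on cdHFD (0.73 ± 0.20, edgeR adjusted p = 0.028). The phosphatidate phosphatase Lpin1 had opposite signs, at -0.50 ± 0.17 on NC and 0.40 ± 0.17 on cdHFD. Abcc4, which pumps bile acids and conjugates out of hepatocytes, was lower in Hep-Bmal1KO on NC (6.90 ± 4.99 and 2.59 ± 1.75 CPM) and at 14.1 ± 5.7 and 13.7 ± 6.0 on cdHFD, with an interaction of 1.28 ± 0.27 (edgeR adjusted p = 0.002).

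The class of opposite signs held genes of several functions. Asgr2, a subunit of the asialoglycoprotein receptor, had 131 to 204 CPM (median 157) in Hep-Bmal1WT and 160 to 234 (median 185) in Hep-Bmal1KO on NC, and 77.9 to 122 (median 94.6) and 49.2 to 112 (median 85.8) on cdHFD. The ranges overlapped on both diets, and the differences were small, 0.29 ± 0.05 and -0.18 ± 0.05 (interaction -0.47 ± 0.07, edgeR adjusted p = 1.5e-05). Mst1, a secreted growth factor of the liver, behaved likewise (0.21 ± 0.04 and -0.10 ± 0.04). The protease subunit Psen2 had opposite signs on average over ZT (0.31 ± 0.08 and -0.32 ± 0.08). On NC, however, its log2 difference ran from -0.15 at ZT 2 to 0.88 at ZT 10 (any ZT, edgeR adjusted p = 0.00046). Irs1, the insulin receptor substrate, went from 12.9 ± 3.8 to 16.2 ± 5.7 CPM on NC and from 12.4 ± 3.4 to 10.2 ± 2.6 on cdHFD (interaction -0.57 ± 0.14, edgeR adjusted p = 0.0082).

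The largest opposite difference among the genes described belonged to Ppp1r3g, a glycogen-targeting subunit of protein phosphatase 1, though at a low level. Its medians were 1.36 and 0.421 CPM on NC and 0.777 and 1.52 on cdHFD, and 3, 9, 1, and 2 libraries of the 4 groups had 0 counts. The difference was -1.46 ± 0.51 on NC and 1.46 ± 0.44 on cdHFD (interaction 2.92 ± 0.68, edgeR adjusted p = 0.0051). Its means at ZT 14 were 3.80 CPM in Hep-Bmal1WT and 0 in Hep-Bmal1KO on NC, and 2.17 and 13.4 on cdHFD. Both cdHFD groups at ZT 14 include a library against its label.

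Drug-metabolizing enzymes appeared in all classes. Of 43 cytochromes P450 and other CAR and PXR targets, 8 were called (18.6%), 7 negative and 1 positive, and the list median was -0.37. On cdHFD 11 of the 43 were called lower and 2 higher in Hep-Bmal1KO, whereas on NC 8 were lower and 9 higher. Over all genes tested, 3.56% were lower and 2.74% higher on cdHFD, and 7.15% and 8.39% on NC. Cyp2j5, an epoxygenase, had medians of 353 and 399 CPM on NC and 111 and 83.1 on cdHFD (0.15 ± 0.06 and -0.39 ± 0.06, interaction edgeR adjusted p = 2.2e-05). Cyp3a25 also changed sign (0.30 ± 0.09 and -0.28 ± 0.09), Cyp3a59 and Cyp2c70 were raised on NC alone (interactions -1.04 ± 0.18 and -0.61 ± 0.13), and Cyp2f2 and the carboxylesterase Ces2a were reduced on cdHFD alone. The positive interaction was that of Cyp3a44, a female-biased gene with medians below 1 CPM in every group and a maximum of 122 in Hep-Bmal1WT on NC (3.77 ± 0.98, edgeR adjusted p = 0.016).

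Interferon-stimulated genes form an antiviral program. Of 45 genes, 9 (20%) were called, all negative, 42 of 45 estimates were below 0, and the median was -0.36. On NC 7 were called higher and none lower, and on cdHFD 10 were called lower and none higher. Seen from the diet, the list median rose by 0.74 log2 units from NC to cdHFD in Hep-Bmal1WT and by 0.34 in Hep-Bmal1KO. The count was 17 without the 7 libraries, 1 in females alone, 5 without ZT 10, 4 without ZT 18, 2 without ZT 22, and 3, 3, and 5 without mouse 1, 2, or 3 of every combination. Of the 9, 4 had opposite signs, 2 were called on NC alone, and 3 on cdHFD alone.

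Bst2, the antiviral membrane protein tetherin, had 263 to 614 CPM (median 411) in Hep-Bmal1WT and 337 to 581 (median 479) in Hep-Bmal1KO on NC, and 342 to 560 (median 428) and 248 to 661 (median 344) on cdHFD. The highest value on cdHFD belonged to a Hep-Bmal1KO library against its label. The difference was 0.20 ± 0.06 on NC and -0.28 ± 0.06 on cdHFD (interaction -0.48 ± 0.08, edgeR adjusted p = 2.4e-05). Usp18, a brake on interferon signaling, and the GTPase Gbp6 had opposite signs too (interactions -0.66 ± 0.15 and -1.02 ± 0.26). Cmpk2, a nucleotide kinase, was raised on NC alone, from 4.93 ± 2.52 to 8.35 ± 3.38 CPM (interaction -0.91 ± 0.21). Irf7, the transcription factor that amplifies type I interferon, was reduced on cdHFD alone, from 56.3 ± 12.2 to 44.3 ± 12.3 CPM (-0.52 ± 0.12, edgeR adjusted p = 0.007), as was Ddx58 (-0.46).

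In the cdHFD-only class, the smallest p belonged to Hjv, hemojuvelin, the BMP co-receptor that controls hepcidin and iron balance. It had 49.2 to 145 CPM (median 112) in Hep-Bmal1WT and 61 to 137 (median 109) in Hep-Bmal1KO on NC, and 92.2 to 176 (median 126) and 61 to 125 (median 87.5) on cdHFD. The groups coincided on NC, and on cdHFD 24 of 24 Hep-Bmal1KO libraries lay below the Hep-Bmal1WT median. The difference was 0.07 ± 0.06 on NC and -0.48 ± 0.06 on cdHFD (interaction -0.55 ± 0.09, edgeR adjusted p = 1.8e-05). At all 6 ZTs the Hep-Bmal1KO mean of Hjv was lower on cdHFD.

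Drug- and ester-metabolizing enzymes of hepatocytes were also lower in Hep-Bmal1KO on cdHFD. Cyp2f2, a cytochrome P450 typical of periportal hepatocytes, had medians of 886 and 967 CPM on NC, and on cdHFD 80.7 to 268 (median 199) in Hep-Bmal1WT and 23.4 to 252 (median 103) in Hep-Bmal1KO (interaction -0.91 ± 0.16, edgeR adjusted p = 0.00013). From NC to cdHFD Cyp2f2 dropped by 2.36 log2 units in Hep-Bmal1WT and by 3.27 in Hep-Bmal1KO. Of 15 carboxylesterases, which hydrolyse lipid esters and drugs, 3 were called (20%), all negative and all of this class. Ces2a had medians of 57.8 and 33.5 CPM on cdHFD (interaction -0.61 ± 0.17), Ces2g 38.4 ± 7.3 and 30.1 ± 4.3 CPM (mean ± SD, n = 24; -0.43 ± 0.09), and Ces1f 60.0 ± 14.5 and 32.9 ± 19.1 (-0.60 ± 0.18, edgeR adjusted p = 0.047). Hopx, a homeodomain-only protein, went from 29.3 ± 10.2 to 17.2 ± 5.5 CPM on cdHFD (-0.82 ± 0.18), the proteasome activator subunit Psme1 from 211 ± 17 to 187 ± 19 (-0.25 ± 0.06), the membrane protein Cmtm8 from 96.5 ± 14.6 to 77.7 ± 12.0 (-0.34 ± 0.07), and the acute phase protein Crp from 202 ± 39 to 168 ± 39 (-0.36 ± 0.10). Ketohexokinase (Khk), the entry enzyme of fructose and the 1 called gene of 12 CHREBP targets, belonged to the same-sign class but was lower on both diets, more so on cdHFD (-0.38 ± 0.09 and -0.84 ± 0.09, edgeR adjusted p of the interaction = 0.035).

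A part of the genes of macrophages, matrix, and injury was higher in Hep-Bmal1KO on cdHFD. In bulk liver, fewer or more cells of a type and less or more RNA per cell cannot be told apart. Gpnmb and Lgals3 (galectin-3) mark lipid-laden macrophages in fatty liver. Gpnmb had medians of 2.05 and 2.03 CPM on NC, and on cdHFD 44.3 to 136 (median 81.5) in Hep-Bmal1WT and 58.3 to 275 (median 153) in Hep-Bmal1KO, and 16 of the 24 Hep-Bmal1KO libraries lay above every Hep-Bmal1WT library. The interaction of Gpnmb was 1.19 ± 0.24 (edgeR adjusted p = 0.00078). Lgals3 had medians of 19.3 and 16.6 CPM on NC and of 329 and 482 on cdHFD (0.60 ± 0.12, edgeR adjusted p = 0.00078). Of 31 macrophage genes, 3 were called (9.68%), the third being Cd9, a tetraspanin that was higher in Hep-Bmal1KO on both diets and more so on NC (-0.55 ± 0.15). The summed level of the macrophage markers ranged from 1190 to 2220 CPM (median 1780) and from 1330 to 2470 (median 1840) on NC, and from 4030 to 7040 (median 5830) and from 4680 to 8200 (median 6500) on cdHFD. Its part in the single genes was not tested.

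Collagens and other matrix genes are the products of activated stellate cells. The list median rose from NC to cdHFD by 1.7 log2 units in Hep-Bmal1WT and by 2.1 in Hep-Bmal1KO. Of 36 genes of stellate cells and matrix, 18 were called higher in Hep-Bmal1KO on cdHFD, beside 2.74% over all genes tested, and none lower. On NC none was higher, beside 8.39% over all genes tested. There 2 were lower, which is near the 7.15% over all genes tested. The interaction passed the test for 3 (8.33%), all positive, and 34 of 36 estimates were above 0 with a median of 0.35. Col5a2, a chain of collagen V, had 0.594 to 6.15 CPM (median 3.05) in Hep-Bmal1WT and 0.181 to 5.01 (median 1.69) in Hep-Bmal1KO on NC, and 7.30 to 21.1 (median 12.3) and 7.12 to 39.2 (median 17.9) on cdHFD. Its difference was -0.86 ± 0.22 on NC and 0.60 ± 0.15 on cdHFD (interaction 1.46 ± 0.27, edgeR adjusted p = 0.00023). Pdgfra, a growth factor receptor of mesenchymal cells, also changed sign (-0.56 ± 0.19 and 0.34 ± 0.15), and Lox, which cross-links collagen, went from a median of 1.64 to 3.52 CPM on cdHFD and was near 0 on NC (1.80 ± 0.54, edgeR adjusted p = 0.042). Without the 7 libraries the interaction of Lox was 1.69 (edgeR adjusted p = 0.057). The summed stellate and matrix level had medians of 1440 and 1270 CPM on NC and of 2220 and 2660 on cdHFD, with ranges of 966 to 1990, 953 to 1890, 1790 to 2940, and 1660 to 4050, and its part in single genes was not tested.

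Of 21 ductular and injury genes, 8 were called higher in Hep-Bmal1KO on cdHFD, beside 2.74% over all genes tested. On NC 6 were called higher and 1 lower, and 2 were called for the interaction (9.52%). Krt23, a keratin of injured liver, averaged 1.81 ± 1.68 and 1.34 ± 0.95 CPM on NC and 6.79 ± 3.52 and 12.3 ± 5.3 on cdHFD (1.16 ± 0.35, edgeR adjusted p = 0.047). Tnfrsf12a, the TWEAK receptor, was lower in Hep-Bmal1KO on NC alone (0.67 ± 0.20, edgeR adjusted p = 0.042). None of 16 endothelial markers was called by edgeR or DESeq2 (2 at an unadjusted p under 0.05 in edgeR), and their summed level had medians between 397 and 437 CPM in all 4 groups. Of 22 markers of lymphocytes and neutrophils 1 was called, the immunoglobulin heavy chain Ighm (-1.08 ± 0.29), and of 14 markers of blood, fat, and pancreas 1, the elastase Cela1 (-1.15 ± 0.29). Ighm and Cela1 were higher in Hep-Bmal1KO on NC. Their interactions were -0.17 and -0.17 in females and -1.78 and -1.79 in males, differences that were not called (edgeR adjusted p = 0.26 and 0.17). Cela1 ranged from 17 to 475 CPM (median 57.9) in Hep-Bmal1KO on NC.

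The same-sign class had the largest median genotype difference of the classes, 1.33 log2 units on NC and 0.56 on cdHFD. Lpl, lipoprotein lipase, which is low in adult hepatocytes, had 8.54 to 540 CPM (median 26.8) in Hep-Bmal1WT and 17.1 to 467 (median 349) in Hep-Bmal1KO on NC, and 129 to 439 (median 198) and 124 to 556 (median 379) on cdHFD. On NC, the 2 highest Hep-Bmal1WT and the 2 lowest Hep-Bmal1KO libraries were the 4 against their labels. Lpl too was among the genes used to find such libraries. The fold change was 7.91 on NC and 1.79 on cdHFD, and the interaction -2.15 ± 0.35 (edgeR adjusted p = 2.4e-05), or -2.68 without the 7 libraries. Lpl rose by 2.37 log2 units from NC to cdHFD in Hep-Bmal1WT and by 0.22 in Hep-Bmal1KO. Gstm2 (4.16-fold and 1.71-fold), Cyp2c55 (7.22-fold and 2.12-fold), and the membrane protein Ly6e (2.51-fold and 1.4-fold) showed the same order, as did Gstm7 and cyclin I (Ccni). As3mt, the arsenite methyltransferase, was lower in Hep-Bmal1KO on both diets, with log2 differences of -1.04 on NC and -0.41 on cdHFD.

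When the interaction was tested at any of the 6 ZTs, 233 genes (1.5%) were called, of which 142 were also called on average and 91 were not. Insig2, which holds the SREBP complex in the endoplasmic reticulum, had means of 59.0 and 237 CPM at ZT 10 on NC (Hep-Bmal1WT and Hep-Bmal1KO) and of 154 and 136 on cdHFD, whereas at ZT 6 it had 241 and 338 on NC and 95.7 and 252 on cdHFD. Its interaction was 0.91 ± 0.41 at ZT 6 and -2.19 ± 0.41 at ZT 10 (any ZT, edgeR adjusted p = 4.0e-05). Tubb2a, a beta-tubulin, had 43.6 and 148 CPM at ZT 10 on NC and 469 and 394 on cdHFD, and at ZT 2 318 and 297 on NC and 214 and 374 on cdHFD (any ZT, edgeR adjusted p = 5.7e-06). Tef, a clock output transcription factor, peaked at ZT 10 with 149 CPM in Hep-Bmal1WT on NC, where Hep-Bmal1KO had 84.5. On cdHFD its Hep-Bmal1WT peak was at ZT 6, with 69.4 CPM against 35.5 in Hep-Bmal1KO (any ZT, edgeR adjusted p = 7.3e-07). The difference between ZTs itself was not tested. Each ZT mean rests on 4 mice, and some of these groups include a library against its label. At ZT 6 these were both genotypes on NC, and at ZT 10 Hep-Bmal1KO on NC and Hep-Bmal1WT on cdHFD. Single-ZT values without these libraries were not computed. None of 15 core clock genes was called for the averaged interaction by edgeR, 4 had an unadjusted p under 0.05, and DESeq2 called 2. Without the 7 libraries 5 were called, but those libraries were found in part with 10 clock genes, so that count is no separate support. Arntl was called at any ZT (edgeR adjusted p = 0.00067). Of the enzymes of smallest averaged p, the interactions of Fdft1, Mvk, Cyp51, Acat2, Dhcr7, and Tm7sf2 were negative at 6 of 6 ZTs each.

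**Figure D5:**
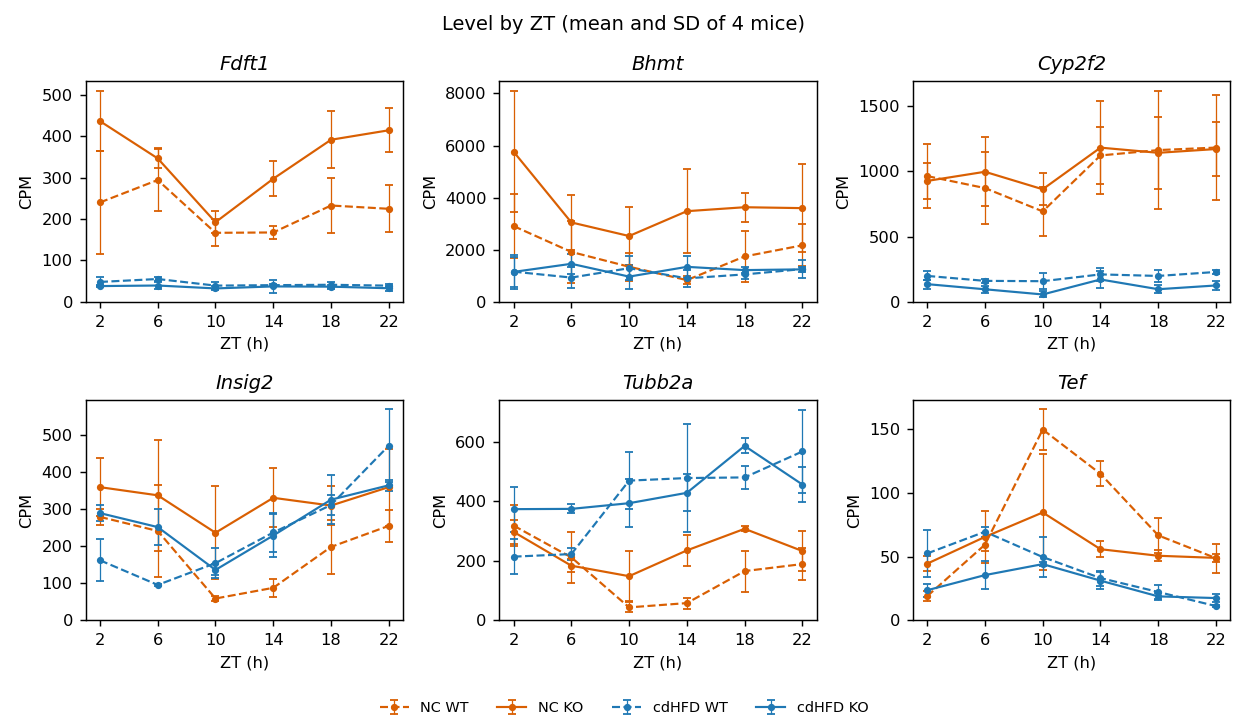
Mean and SD of CPM over 4 mice at each ZT, for NC (orange) and cdHFD (blue) with Hep-Bmal1WT dashed and Hep-Bmal1KO solid. Fdft1 is higher in Hep-Bmal1KO on NC at all 6 ZTs, Cyp2f2 is lower on cdHFD at all 6, and the lines of Insig2, Tubb2a, and Tef cross over the day.

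The remaining lists held 3 called genes or fewer, beside a share of 3.04% over all genes tested. Bile acid genes had 3 of 21 (14.3%), namely Abcc4, the export pump Abcb11 (-0.36 ± 0.09, opposite signs), and Akr1c6 (-0.34 ± 0.10). Growth hormone and IGF genes had 2 of 13 (15.4%), Igfbp2 (0.45 ± 0.12) and Stat5b (-0.35 ± 0.10), both called on NC alone. Triglyceride synthesis had 2 of 26 (7.69%), Agpat2 (-0.38 ± 0.10) and Lpin1. Acute phase had 2 of 29 (6.9%), Crp and Il6ra (0.79 ± 0.20), and glucose metabolism 2 of 21 (9.52%), Irs1 and Ppp1r3g. Lists with 1 called gene were female-biased liver genes (Cyp3a44, 1 of 23), pericentral genes (Lhpp, -0.64 ± 0.17, 1 of 16), clock output (Tspan4, 0.43 ± 0.12, 1 of 11), and unfolded protein response (Asns, 1 of 30). A count of 1 does not describe lists of this size. Periportal genes had 2 of 16 (12.5%), Alb and Cyp2f2. No gene was called by edgeR or DESeq2 among 46 of the cell cycle and 19 of heat shock and cold, where 8 and 3 had an unadjusted p under 0.05 in edgeR and 4 and 1 were called by edgeR without the 7 libraries. Of 24 male-biased liver genes edgeR called none, DESeq2 called 2, 3 had an unadjusted p under 0.05 in edgeR, and 2 were called without the 7 libraries. By sex, the interaction differed for 13 genes (0.0836%). Around the threshold lay Rab32 (interaction -0.28, edgeR adjusted p = 0.049) just inside and Htatip2 (-0.41, edgeR adjusted p = 0.050) just outside.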

How the data were processed

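Liver RNA of 96 mice was measured by BRB-seq, which reads the 3′ end of each mRNA. The authors demultiplexed the reads, mapped them with STAR (genome build mm10), and deposited raw, unnormalized gene counts (HTSeq and featureCounts are both named in the sources). Whether molecular identifiers were collapsed is not given in the sources used here. Reads in rows that name no gene were 27.5% of the total and were left out. Of 55487 genes, 15548 summing to 100 or more counts were tested with edgeR 4.0.16 in R 4.3.3 (TMM, quasi-likelihood test), with a level for each diet and ZT and a genotype term for each diet. The tests at any ZT and by sex added genotype terms per ZT or sex.

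Groups were taken from the labels. The members and gene lists were chosen with earlier results of these data known. Genes named were Arntl, in each class the 8 of smallest interaction p with a mean of at least 5 CPM and no predicted-gene or RIKEN symbol, up to 5 called genes per list, and 3 each of the tests at any ZT and by sex. Other genes are named as list members or for a called sex difference, and Rab32 and Htatip2 mark the threshold. Gene positions are from RefSeq for GRCm38.p6, matched by symbol for 93 of 94 genes. Some genes that the rule or the lists include are not reported here. Promoter motifs were not analysed here. On simulated counts, 200 genes with a mean of at least 5 CPM were changed by 1 log2 unit on 1 diet, with every library true to its label. The interaction test on 15548 genes found 95% of them, and 4.52% of 199 calls were false. The median size of the called interactions was 0.49 (NC only), 0.51 (cdHFD only), 0.84 (same sign), and 0.48 (opposite signs). These rates therefore do not describe smaller changes, lower levels, or libraries against their labels. DESeq2 1.42.0, other filters and scalings, and single sexes, ZTs, or mice left out were tried as alternatives.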

Additional observations from a re-analysis of the deposited data

Results flagged for a closer look

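The interaction of genotype and diet differed between the sexes for 13 genes (0.0836% of those tested), and 1295 had an unadjusted p under 0.05 in edgeR. Without the 7 libraries against their labels, 36 genes were called. Gstp3, a glutathione transferase of the pi class, had an interaction of 0.02 in females and -1.09 in males, a difference (females minus males) of 1.1 ± 0.19 (SE, edgeR adjusted p = 0.0016). Tmem98, a membrane protein, had -0.48 in females and 1.24 in males (difference -1.72 ± 0.30, edgeR adjusted p = 0.0016), and Mgst3, a microsomal glutathione transferase, -0.32 and 1.04 (difference -1.35 ± 0.25, edgeR adjusted p = 0.002). One library labelled female did not match that label by its sex-linked transcripts.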

How the results depend on the processing

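No paired analysis was possible because the labels give no replicate numbers shared between groups, and each mouse belongs to 1 genotype and diet. Of 473 genes, 470 kept the sign of the interaction on the scale of mean CPM. The interaction count was 408 with DESeq2's size factors and 645 with DESeq2 (2110 adjusted p-values were not given), which called 107 genes on cdHFD only. Adding sex within diet gave 762 genes for the interaction, 134 on cdHFD only, 39 of same sign, and 139 of opposite signs. Females alone gave 1006 genes on NC, 303 on cdHFD, and 153 for the interaction (75 NC only, 19 cdHFD only, and 0 of same sign, where 84 of the 153 were among the 473 and 1978 had an unadjusted p under 0.05), and the interaction of Gstp3 turned to 0.020. At an adjusted p under 0.01, 1426 genes were called on NC, 497 on cdHFD, and 167 for the interaction (116 NC only, 14 cdHFD only, 3 same sign, and 34 opposite signs). The 48 cdHFD libraries alone gave 1494 genes on cdHFD. Without the 7 libraries, an alternative chosen after seeing the data, 1554 genes were called on cdHFD, 919 for the interaction, 525 on NC only, 143 on cdHFD only, 95 of same sign, 142 of opposite signs, 529 at any ZT, and 36 by sex.

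Leaving out each ZT, or 1 mouse of every combination of genotype, diet, and ZT, gave 103 to 736 genes for the interaction, 1402 to 2401 on NC, 294 to 1069 on cdHFD, 59 to 476 on NC only, 9 to 99 on cdHFD only, 2 to 20 of same sign, and 30 to 134 of opposite signs. The interaction count was 736 without ZT 2, 211 without ZT 10, 254 without ZT 14, 301 without ZT 18, and 260 without ZT 22, and 103 and 163 without the first or second mouse, of which 400, 198, 219, 273, 234, 92, and 152 were among the 473. These fits hold fewer samples. The cholesterol synthesis count lay between 9 and 17 in all 22 alternatives, and the counts of the other lists ranged from 1 to 17 (interferon-stimulated), 3 to 11 (glutathione transferase and NRF2), 3 to 15 (cytochromes P450), 1 to 11 (amino acid catabolism), 1 to 8 (stellate cells and matrix), 2 to 4 (macrophage), and 0 to 22 (ribosomal protein). Fdft1, Mvk, Cyp51, Gstm6, Gstm3, Lpl, Bst2, Hjv, Cyp2f2, and Col5a2 passed the threshold in 22 of 22 alternatives, Gpnmb and Lgals3 in 21, Bhmt in 16, Pdgfra in 13, Krt23, Fabp1, and Fkbp5 in 11, and Lox and Ces1f in 9. Depth limits Ppp1r3g, Lox, Asns, Krt23, and Cyp3a44, whose medians were below 2 CPM in both genotypes on NC, and Col5a2, Pdgfra, and Mthfd1l, whose medians were so in Hep-Bmal1KO on NC.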
